A study of Mus musculus with 4 samples.

Results

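The genes described here encode receptors and signal-transducing Smad proteins of the TGF-β and BMP pathways. They are 10 of the 23235 gene symbols in the deposited tables and were chosen by name: the receptors that the inhibitors Repsox and DMH1 act on or that pair with those receptors (Tgfbr1, Acvr1b, Acvr1, Bmpr1a, Acvr2b and Bmpr2), and Smad1, Smad2, Smad3 and Smad4. The choice was made with earlier results of these data known. Expression was measured by RNA sequencing in mouse haploid embryonic stem cells (haESCs), which carry a single set of chromosomes. According to the study's legends these were cells of the androgenetic line HG165, whose genome is of paternal origin. The 2 control samples received the solvent DMSO and the 2 treated samples received RDF, the combination of Repsox, an inhibitor of TGF-β signaling, DMH1, an inhibitor of BMP signaling, and Forskolin, an activator of adenylyl cyclase. All groups shared the ES medium with serum and leukemia inhibitory factor that the study used unless it stated otherwise. The sources used here give neither the length of treatment of these samples nor whether haploid cells were sorted before RNA was taken, and all samples came from 1 line. No source states that samples of a group came from separate cultures, so p-values measure the spread between these samples, which may be technical.

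Ligands of this family bring together a type II receptor, which is constantly active as a kinase, and a type I receptor, which it phosphorylates. The activated type I receptor then phosphorylates a receptor-regulated Smad. Tgfbr1 and Acvr1b serve TGF-β, activin and Nodal and act on Smad2 and Smad3, whereas Acvr1 and Bmpr1a serve the BMPs and act on Smad1 and its relatives. In either branch the phosphorylated Smads join Smad4 and enter the nucleus. Repsox blocks the kinase of the receptor encoded by Tgfbr1, and DMH1 that of the receptor encoded by Acvr1. Whether they also act on other receptors of the list was not measured here. In mouse embryonic stem cells, BMP signaling together with leukemia inhibitory factor is known to hold back differentiation, and Nodal signaling induces its own inhibitors.

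The values are FPKM, the fragments scaled to transcript length and to the mapped fragments of the sample, which allow levels of different genes to be set beside each other. Summed FPKM per sample ranged from 718064 to 764461. FPKM do not state the number of fragments, but low values rise in steps of 1 fragment, and the steps put the depth at an estimated 9320000 to 12480000 fragments per sample. Within 0.1 of a whole number lay 40.2% to 42.6% of the low values, against 20% for an even spread, so that the estimate is approximate. All 6 embryonic stem cell markers of a written list passed the filter on low values, and Pou5f1 stood between 939 and 1285 FPKM in the 4 samples. Of these 6 genes Zfp42 (log2 fold change 0.85) and Sox2 (0.26) were called higher in RDF, and Dppa5a (-0.86) and Pou5f1 (-0.35) lower, in the comparison described next.

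RDF-treated haESCs had higher transcript levels of Acvr1b, Bmpr1a and Smad3 than DMSO-treated haESCs, by 1.52-fold, 1.48-fold and 1.60-fold in mean FPKM. The other 7 receptors and Smads did not pass the test, and none of the 10 changed more than 2-fold. A difference was tested with limma on log2(FPKM + 1) over the 11733 genes whose mean reached 1 FPKM, which included all 10 members, and a gene was called at an adjusted p under 0.05 (Benjamini-Hochberg). Of the 10 members, 3 were called higher, where 13.3% of all genes tested were called higher. Of the 10 members, limma called 0 lower, where 8.28% of all genes tested were called lower. At an unadjusted p under 0.05, 5 members were higher, against 22.5% of all genes tested, and 0 were lower, against 15.5%. Both RDF values lay above both DMSO values for 6 members, against 37.1% of all genes tested, and below for 0 members, against 28.5%. The median log2 fold change (RDF minus DMSO) was 0.21 over the members and 0.03 over all genes tested, and it ranged over the members from 0.03 to 0.55. With 2 samples in each group the smallest two-sided p of an exact permutation test is 0.333, so each adjusted p rests on the spread that limma shares among all genes. In the fit that left out RDF replicate 2, 0 members were called, and in the fit that left out RDF replicate 1 the only member called was Acvr1b. In those fits the share of all genes called in either direction was 4.69% and 5.54%, against 21.6% with all 4 samples.

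**Figure D1:**
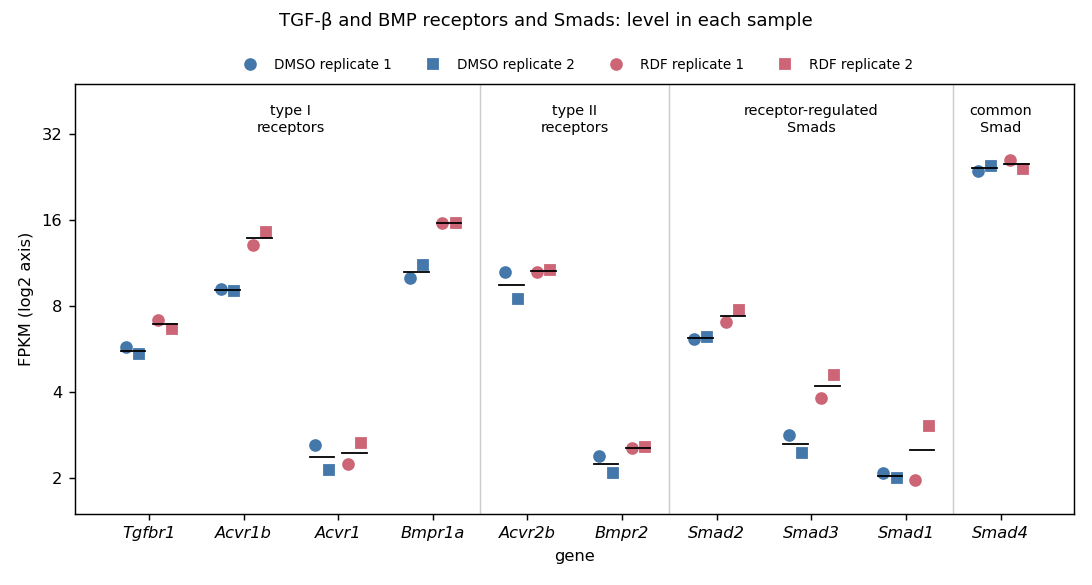
FPKM of the 10 receptors and Smads on a log2 axis, with a circle for replicate 1 and a square for replicate 2 of DMSO (blue) and RDF (red), and a black bar at the mean of each group. Both RDF points lie above both DMSO points for 6 genes, among them Acvr1b, Bmpr1a and Smad3, and the points of Acvr1, Acvr2b, Smad1 and Smad4 overlap.

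To show the sequences next to which these transcripts start, the promoters of the 3 genes that rose are printed here. Those of Tgfbr1 and Acvr1, whose products are among the targets of the inhibitors, are printed with them. The promoters run from 250 bases before to 50 bases after the annotated start, 5′ to 3′, and are RefSeq sequences of build GRCm38.p6. Capitals mark GGCGCC, a GC-rich element that BMP-responsive Smads can bind, CAGAC, the core of the Smad binding element, and TGACG, the core of the cAMP response element, on either strand.
Tgfbr1, chr4:47352972-47353271, plus strand: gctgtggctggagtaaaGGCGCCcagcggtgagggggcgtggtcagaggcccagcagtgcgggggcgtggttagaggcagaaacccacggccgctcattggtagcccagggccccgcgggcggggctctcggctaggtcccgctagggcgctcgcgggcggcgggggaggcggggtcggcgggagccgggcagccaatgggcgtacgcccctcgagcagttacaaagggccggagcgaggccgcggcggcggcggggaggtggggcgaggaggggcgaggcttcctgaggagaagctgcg
Acvr1b, chr15:101173822-101174121, plus strand: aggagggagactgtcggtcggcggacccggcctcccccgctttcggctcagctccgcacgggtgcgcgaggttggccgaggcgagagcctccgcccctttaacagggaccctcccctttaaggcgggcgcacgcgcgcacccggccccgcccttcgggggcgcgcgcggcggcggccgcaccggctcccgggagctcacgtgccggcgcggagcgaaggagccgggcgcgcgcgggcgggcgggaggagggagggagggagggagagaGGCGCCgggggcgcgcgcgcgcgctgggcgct
Acvr1, chr2:58566779-58567078, minus strand: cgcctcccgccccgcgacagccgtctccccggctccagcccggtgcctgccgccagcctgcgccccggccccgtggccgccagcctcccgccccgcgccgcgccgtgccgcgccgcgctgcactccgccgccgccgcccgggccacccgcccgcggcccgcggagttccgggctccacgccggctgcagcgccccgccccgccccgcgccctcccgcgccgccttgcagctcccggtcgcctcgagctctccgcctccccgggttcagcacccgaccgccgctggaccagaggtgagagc
Bmpr1a, chr14:34502497-34502796, minus strand: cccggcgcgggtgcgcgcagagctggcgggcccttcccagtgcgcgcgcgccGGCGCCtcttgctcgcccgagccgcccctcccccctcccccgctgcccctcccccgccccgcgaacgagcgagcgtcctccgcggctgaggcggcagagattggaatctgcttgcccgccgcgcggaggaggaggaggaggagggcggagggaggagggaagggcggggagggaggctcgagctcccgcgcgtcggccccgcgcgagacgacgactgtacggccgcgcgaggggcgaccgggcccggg
Smad3, chr9:63757945-63758244, minus strand: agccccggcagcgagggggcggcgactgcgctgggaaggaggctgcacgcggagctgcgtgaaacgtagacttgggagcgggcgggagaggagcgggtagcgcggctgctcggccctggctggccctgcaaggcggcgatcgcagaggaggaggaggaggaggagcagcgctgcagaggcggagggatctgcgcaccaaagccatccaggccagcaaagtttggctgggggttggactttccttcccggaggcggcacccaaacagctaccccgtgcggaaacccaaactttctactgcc

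Promoter sequences were matched for 8 of the 10 members by symbol, with 9 promoters in all because Tgfbr1 has a further start. The first promoters of these 8 genes had a GC content between 59.3% and 83.7%, above the median of 52.7% over 32841 promoters of the same length in each case. GGCGCC, which reads the same on both strands, was present in Acvr1b, Bmpr1a, Tgfbr1 and Bmpr2, 4 of 8 genes, and in 11.9% of all promoters. The share over all promoters was not matched for GC content, although GGCGCC holds only G and C. It also counts promoters and not genes, so that an enrichment cannot be read from it. CAGAC was present in Acvr2b and in the further promoter of Tgfbr1, 2 of 8 genes, against 49.6% of all promoters, and TGACG in Smad1, against 20.8% of all promoters. The full palindromes GTCTAGAC and TGACGTCA, the latter of which contains TGACG, were found in 0 of the 8 genes, and in 0.213% and 1.79% of all promoters. Of the 3 genes that rose, Smad3 held none of these letters in its promoter window. These matches describe the windows only.

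Among the type I receptors, Tgfbr1, which encodes the TGF-β type I receptor, a target of Repsox, lies on chromosome 4 from 47366094 to 47427803 (plus strand). This and the following positions are those of build NCBIM37, which is mm9. Tgfbr1 stood at 5.73 and 5.43 FPKM in DMSO replicates 1 and 2 and at 7.17 and 6.66 FPKM in RDF replicates 1 and 2. Both treated samples were above both control samples, but the difference did not pass the test, with a log2 fold change of 0.27 (95% confidence interval 0.06 to 0.47, adjusted p = 0.0713 from limma). Acvr1b, the activin and Nodal type I receptor, lies on chromosome 15 from 101004556 to 101043032 (plus strand). In DMSO its level was 9.17 and 9.02 FPKM, and in RDF 13.1 and 14.5 FPKM. The DMSO samples differed from each other by far less than either differed from an RDF sample. The mean rose from 9.09 ± 0.102 to 13.8 ± 0.990 FPKM (SD, n = 2 each). The log2 fold change was 0.55, with a standard error of 0.078 and an adjusted p of 0.00725 from limma. With any 1 sample left out its log2 fold change stayed between 0.48 and 0.62, and its adjusted p was 0.0555 without RDF replicate 2. The ratio of Acvr1b to Tgfbr1, which does not depend on how samples are scaled, was 1.60 and 1.66 in DMSO and 1.83 and 2.18 in RDF.

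Of Acvr1 and Bmpr1a, the type I receptors of the BMP branch, Bmpr1a passed the test and Acvr1 did not, and the difference between their changes was not tested. Acvr1, which encodes a target of DMH1, lies on chromosome 2 from 58241055 to 58419568 (minus strand). Its DMSO values were 2.60 and 2.14 FPKM and its RDF values 2.23 and 2.65 FPKM. The ranges of the groups overlapped, and the log2 fold change was 0.03 (95% confidence interval -0.27 to 0.33, adjusted p = 0.877 from limma), an interval that leaves room for folds from 0.830 to 1.26 on the FPKM + 1 scale. With quantile normalization its sign turned, to -0.03. Bmpr1a, the more abundant of these receptors, lies on chromosome 14 from 35223920 to 35316527 (minus strand). The DMSO samples had 9.999 and 11.1 FPKM and the RDF samples 15.6 and 15.7 FPKM. The RDF samples were nearly equal and stood clear of both DMSO samples. The mean rose from 10.6 ± 0.782 to 15.6 ± 0.0187 FPKM (SD, n = 2 each). The log2 fold change was 0.53, with a standard error of 0.076 and an adjusted p of 0.00767 from limma. Without RDF replicate 1 the adjusted p of Bmpr1a was 0.0587 and without RDF replicate 2 it was 0.0617, at log2 fold changes of 0.53 in each case. The ratio of Bmpr1a to Acvr1 was 3.84 and 5.18 in DMSO and 6.999 and 5.91 in RDF. Bmpr1a was the only member with an exon overlapping another annotated gene, the processed transcript Gm17110 on the opposite strand. The libraries were stranded, but whether the counting used the strand is not given in the sources used here.

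The type II receptors showed no difference that passed the test. Acvr2b, which binds activin and Nodal-related ligands, lies on chromosome 9 from 119311562 to 119342619 (plus strand). In DMSO it had 10.5 and 8.45 FPKM, and in RDF 10.5 and 10.7 FPKM. DMSO replicate 1 reached the level of the RDF samples and DMSO replicate 2 stood below the rest. The log2 fold change of Acvr2b was 0.15 (95% confidence interval -0.11 to 0.41, adjusted p = 0.339 from limma), and it was 0.30 without DMSO replicate 1 and 0.0093 without DMSO replicate 2. Bmpr2, the BMP type II receptor, lies on chromosome 1 from 59821481 to 59927703 (plus strand). Its DMSO values were 2.39 and 2.09 FPKM and its RDF values 2.55 and 2.57 FPKM. The RDF samples were above both DMSO samples by a small margin, with a log2 fold change of 0.14 (95% confidence interval -0.12 to 0.39, adjusted p = 0.380 from limma), or 0.20 without DMSO replicate 1 and 0.069 without DMSO replicate 2. The ratio of Acvr2b to Bmpr2 was 4.40 and 4.04 in DMSO and 4.12 and 4.16 in RDF, so that it overlapped between the groups.

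Among the receptor-regulated Smads, only Smad3 passed the test; whether its change differed from that of Smad2 or Smad1 was not tested. Smad2, which carries TGF-β, activin and Nodal signals, lies on chromosome 18 from 76401234 to 76465385 (plus strand). The DMSO samples had 6.12 and 6.26 FPKM and the RDF samples 7.04 and 7.74 FPKM. Both RDF values were above both DMSO values, with a log2 fold change of 0.22 (95% confidence interval 0.02 to 0.43, adjusted p = 0.109 from limma). Smad3, which serves the same branch and, unlike the main form of Smad2, binds DNA directly, lies on chromosome 9 from 63494574 to 63605801 (minus strand). In DMSO it had 2.83 and 2.44 FPKM, and in RDF 3.82 and 4.59 FPKM. The groups did not overlap, although the replicates of each group differed visibly. The mean rose from 2.64 ± 0.272 to 4.21 ± 0.544 FPKM (SD, n = 2 each). The log2 fold change was 0.52, with a standard error of 0.117 and an adjusted p of 0.0284 from limma, and it understates the 1.60-fold difference because of the pseudocount. The adjusted p of Smad3 was 0.0778 without the filter on low values, 0.0781 without DMSO replicate 2, 0.0690 without RDF replicate 1 and 0.145 without RDF replicate 2. The ratio of Smad3 to Smad2 was 0.462 and 0.390 in DMSO and 0.543 and 0.593 in RDF, so that Smad3 was the lower of the pair in every sample.

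Smad1, which carries BMP signals, lies on chromosome 8 from 81862294 to 81923417 (minus strand). Its DMSO values were 2.08 and 2.00 FPKM and its RDF values 1.97 and 3.05 FPKM. RDF replicate 1 lay below both DMSO samples and RDF replicate 2 above them, and the log2 fold change was 0.19 (95% confidence interval -0.20 to 0.58, adjusted p = 0.428 from limma), or -0.03 without RDF replicate 2. Smad4, the common partner of all receptor-regulated Smads, lies on chromosome 18 from 73798663 to 73863434 (minus strand). The DMSO samples had 23.8 and 24.8 FPKM and the RDF samples 26.0 and 24.2 FPKM. The groups overlapped, with a log2 fold change of 0.05 (95% confidence interval -0.11 to 0.20, adjusted p = 0.644 from limma), which was the narrowest interval among the 10 members. The ratio of Smad4 to Smad2 was 3.88 and 3.97 in DMSO and 3.69 and 3.13 in RDF.

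**Figure D2:**
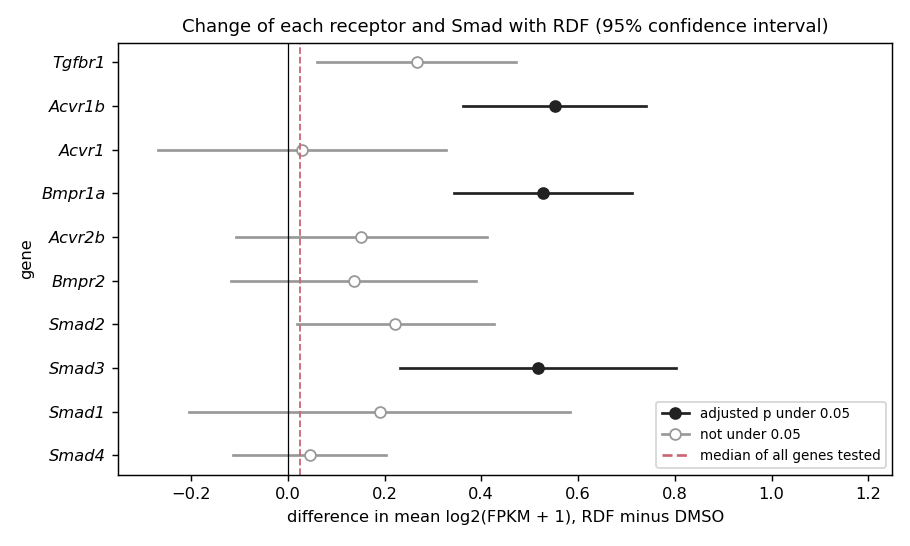
Difference in mean log2(FPKM + 1) between RDF and DMSO for each gene, with limma's 95% confidence interval. Filled points are the 3 genes with an adjusted p under 0.05 (Acvr1b 0.55, Bmpr1a 0.53 and Smad3 0.52), and the dashed line marks the median of all 11733 genes tested, 0.03.

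In the order of levels, Smad4 was the most abundant member in DMSO (24.3 ± 0.755 FPKM, SD, n = 2), followed by Bmpr1a, Acvr2b, Acvr1b, Smad2, Tgfbr1, Smad3, Acvr1, Bmpr2 and Smad1 (2.04 ± 0.0576 FPKM, SD, n = 2). The DMSO values of Bmpr1a and Acvr2b overlapped, as did those of Acvr2b and Acvr1b, of Smad3 and Acvr1, and of Acvr1 and Bmpr2, so that the order within these pairs was not separated by the replicates. In RDF the order was Smad4, Bmpr1a, Acvr1b, Acvr2b, Smad2, Tgfbr1, Smad3, Bmpr2, Smad1 and Acvr1. There the values overlapped between Smad2 and Tgfbr1, between Bmpr2 and Smad1, and between Smad1 and Acvr1. Acvr1b and Bmpr1a stood apart from Acvr2b in RDF, where in DMSO they had not. Smad4 lay at percentile 71.0 of the mean levels of all genes tested and Smad1 at percentile 14.8, and the median percentile of the 10 members was 38.8. Comparisons of level between genes depend on the transcript lengths that the authors' annotation gave, which were not analysed here.

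The depth bears most on the low members. With the longest transcript in the GENCODE annotation, the estimated number of fragments behind a value was between 73.2 and 130 for Smad1, between 77.5 and 98.8 for Acvr1 and between 78.2 and 112 for Bmpr2. Counting error alone at the lowest of these values was 11.7%, 11.4% and 11.3%. For Bmpr1a the estimate was 555 to 1162 fragments and for Smad4 749 to 1097 fragments, with a counting error at the lowest value of 4.24% and 3.65%. The 1.14-fold difference of Bmpr2 in mean FPKM was close to this counting error of a single sample. No stretch of 50 bases in the annotated protein-coding transcripts of the 10 genes was shared with a protein-coding transcript of another gene.

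Summed over their classes, type I receptors were higher in RDF, and the sum of type II receptors, whose genes went both ways, overlapped. The 7 type I receptor genes add Acvr1c, Acvrl1 and Bmpr1b to the members. They summed to 32.4 and 32.7 FPKM in DMSO and to 43.1 and 45.7 FPKM in RDF, a ratio of means of 1.36. Most of this rise came from Acvr1b and Bmpr1a, which were called on their own, so that the sum largely restates them. The 5 type II receptor genes, with Acvr2a, Tgfbr2 and Amhr2 beside the members, summed to 26.2 and 25.1 FPKM in DMSO. In RDF they summed to 25.9 and 26.6 FPKM. Amhr2, a large part of this sum, had 9.49 and 10.8 FPKM in DMSO and 7.66 and 8.92 FPKM in RDF. The means of Acvr2a, Acvr2b, Bmpr2 and Tgfbr2 were higher in RDF, so that the overlap of the sums depends on Amhr2. The Smads of the TGF-β branch, Smad2 and Smad3, summed to 8.94 and 8.70 FPKM in DMSO and to 10.9 and 12.3 FPKM in RDF. Smad3, which was called on its own, is part of this rise. Those of the BMP branch, Smad1, Smad5 and Smad9, summed to 5.87 and 5.61 FPKM in DMSO and to 6.19 and 7.35 FPKM in RDF. Within this sum Smad1 had 1.97 FPKM in RDF replicate 1, below both DMSO values, and 3.05 FPKM in RDF replicate 2. The ratio of the TGF-β branch to the BMP branch was 1.52 and 1.55 in DMSO and 1.76 and 1.68 in RDF, above in both treated samples. These sums are a description, without a test.

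**Figure D3:**
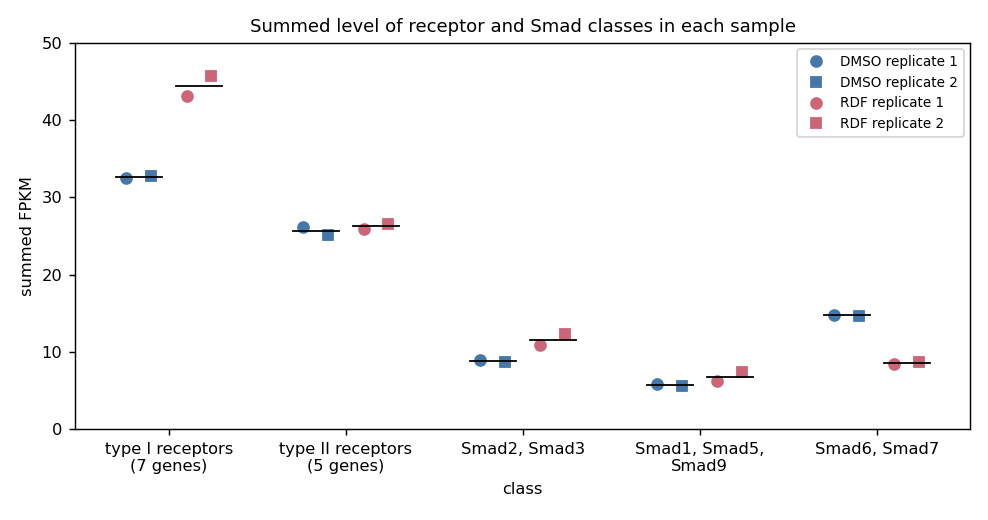
Summed FPKM of 7 type I receptor genes, 5 type II receptor genes and 3 groups of Smads in each sample, with circles for replicate 1, squares for replicate 2, DMSO in blue, RDF in red, and a bar at the mean. The mean sum of type I receptors is 32.6 FPKM in DMSO and 44.4 FPKM in RDF, type II receptors overlap between the groups, and Smad6 with Smad7 stands at 14.7 FPKM in DMSO and 8.59 FPKM in RDF.

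Of the 8 other receptors of the family, 6 passed the filter, of which 1 was called higher and 0 lower. That gene was Tgfbr3, which encodes betaglycan, a co-receptor that presents TGF-β, with 1.54 and 1.48 FPKM in DMSO and 2.64 and 2.96 FPKM in RDF (log2 fold change 0.60, adjusted p = 0.0136 from limma). Tgfbr2, the type II partner of Tgfbr1, had 1.58 and 1.38 FPKM in DMSO and 2.44 and 1.91 FPKM in RDF without passing the test (log2 fold change 0.35, adjusted p = 0.0997 from limma). Acvr2a, the paralog of Acvr2b, had a log2 fold change of 0.13 (adjusted p = 0.375 from limma). Acvr1c, the remaining Nodal type I receptor, was at most 0.0113 FPKM in any sample, and Bmpr1b, the paralog of Bmpr1a, at most 0.200 FPKM, so both were below the filter. Among the Smads outside the 10 members, Smad7, an inhibitory Smad that recruits ubiquitin ligases to type I receptors and is induced by TGF-β signaling, fell from 9.82 and 9.38 FPKM in DMSO to 3.62 and 3.60 FPKM in RDF (log2 fold change -1.20, adjusted p = 0.000957 from limma). Smad6, the inhibitory Smad of the BMP branch, had a log2 fold change of -0.04 (adjusted p = 0.784 from limma) and Smad5 of 0.16 (adjusted p = 0.236 from limma), and Smad9 stayed between 0.262 and 0.308 FPKM, below the filter. The ratio of Smad2 plus Smad3 to Smad7 was 0.910 and 0.928 in DMSO and 3.00 and 3.42 in RDF. This ratio largely restates the fall of Smad7, together with the rise of Smad3, and is not a separate result.

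Over all 81 pathway genes of the written lists that are not members, 58 passed the filter, 13 were called higher and 14 lower, with a median log2 fold change of 0.09, where 13.3% and 8.28% of all genes tested were called. Of these genes, 4 were called higher and 8 lower without RDF replicate 1, and 1 higher and 9 lower without RDF replicate 2. Co-receptors went both ways: Tdgf1, the Nodal co-receptor Cripto, fell by 0.70 on the log2 scale (adjusted p = 0.00280 from limma), and Rgmb, a BMP co-receptor, rose by 0.60 (adjusted p = 0.0220 from limma). Of 6 tested TGF-β, Nodal and activin ligands, Inhbb rose by 1.00 and Tgfb1 fell by 0.94 on the log2 scale (adjusted p = 0.00861 and 0.00308 from limma). Inhbb had 0.186 and 0.502 FPKM in DMSO and 1.66 and 1.69 FPKM in RDF. It thus passed the filter on low values only through the RDF samples, where it was high. Of 4 tested BMP ligands, Bmp7 rose by 0.69 and Bmp4 by 0.54, and Bmp8b fell by 0.48 on the log2 scale (adjusted p = 0.00718, 0.0122 and 0.0372 from limma). Of 7 tested extracellular antagonists, 1 was called higher, the BMP antagonist Grem1 (log2 fold change 0.57), and 3 lower, the Nodal inhibitors Lefty2 (-5.77) and Lefty1 (-2.77) and the activin-binding Fstl3 (-0.61). The 22 Smad partners and modifiers were all tested, and 5 were called higher and 5 lower. Those that rose furthest were Trim33, a ubiquitin ligase that binds Smad complexes (log2 fold change 0.39), Ppp1r15a, which can bring a phosphatase to the type I receptor (0.38), and Rnf111, a ubiquitin ligase that removes Smad repressors (0.35). Those that fell furthest were the repressor Skil (-0.94), Pmepa1, which withholds Smads from the receptor (-0.68), and Foxh1, the DNA-binding partner of Smad2 in Nodal signaling (-0.33).

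Several transcriptional readouts of the pathway differed by more between the groups than any of the 10 members did. Of 8 readouts of TGF-β and Nodal signaling, 7 were called lower and 0 higher, with a median log2 fold change of -1.57. Smad7, Lefty1, Lefty2, Skil and Pmepa1 are among these 7 and were already given above under other lists, so their falls are not separate results. The fall was largest for Lefty2, an inhibitor of Nodal that Nodal induces, from 120 and 115 FPKM to 1.15 and 1.19 FPKM, and Lefty1, which encodes a related inhibitor, had a log2 fold change of -2.77. Of 5 readouts of BMP signaling, 2 were called higher, 0 lower and 3 were not called, Smad6 among them, with a median log2 fold change of 0.17. Of all genes tested, 13.3% were called higher and 8.28% lower. Whether the readouts of either branch changed as a group was not tested. Id2 rose by 0.27 on the log2 scale, and Id3, whose product restrains differentiation factors of the helix-loop-helix class, rose from 13.3 and 16.5 FPKM to 47.2 and 50.6 FPKM (log2 fold change 1.66, adjusted p = 0.000823 from limma). These lists were written with results of the same samples known, and they are given as values beside the members.

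**Figure D4:**
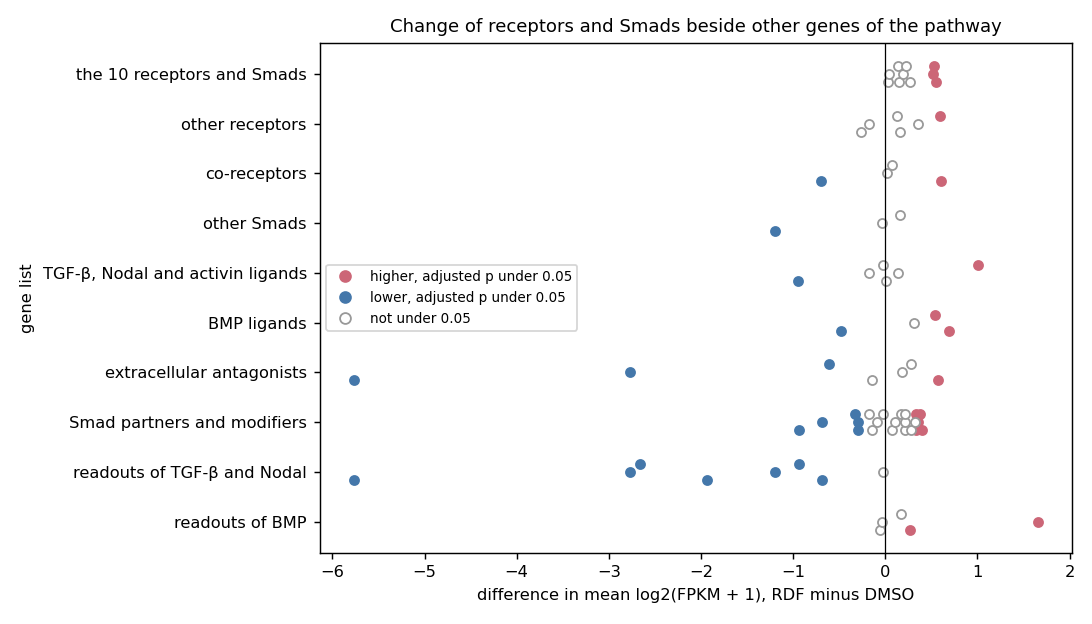
Difference in mean log2(FPKM + 1) between RDF and DMSO for each tested gene of 10 lists, 1 point per gene, red and blue where the adjusted p was under 0.05 and open otherwise. The 10 receptors and Smads lie between 0.03 and 0.55, while readouts of TGF-β and Nodal reach -5.77 and readouts of BMP reach 1.66.

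The labels describe culture on feeder cells, which are fibroblasts, while the methods state that most experiments went without them. Of 8 fibroblast markers 6 passed the filter, and 3 were called lower (Col1a1, Postn and Col1a2, with log2 fold changes of -1.76, -1.71 and -0.87) and 1 higher (Dcn, 1.65). Their summed level was 24.3 to 26.5 FPKM in DMSO and 15.96 to 18.1 FPKM in RDF, and 0 of the 8 were at 0 in all samples. Col1a1 was a large part of the DMSO sum, at 10.5 and 10.4 FPKM, and had 2.62 and 2.17 FPKM in RDF. Dcn went the other way, from 1.74 and 1.40 FPKM in DMSO to 6.56 and 7.51 FPKM in RDF. The lower sum thus largely restates Col1a1 and does not show a fall of the markers together. The part of such cells in the values of the receptors and Smads was not tested. In bulk samples, fewer cells of a type and less RNA per cell cannot be told apart.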

How the data were processed

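RNA of 2 DMSO-treated and 2 RDF-treated samples was analysed. The authors made stranded mRNA libraries, mapped reads to mm9 with Tophat, estimated expression with Cufflinks and its UCSC annotation, and deposited FPKM per gene symbol. The submitters' processing notes name TopHat2 2.0.14, Bowtie2 2.1.0 and Cufflinks 2.2.1. Parameters and any scaling between samples are not given in the sources used here.

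Samples were grouped by their titles. Genes whose mean over the 4 samples reached 1 FPKM were compared on log2(FPKM + 1) with limma 3.58.1 in R 4.3.3 (lmFit, eBayes with a mean-variance trend, two-sided), with Benjamini-Hochberg adjustment over all 11733 genes tested and a threshold of 0.05. The fit was tested on simulated data with independent normal noise, which cannot show whether the calls hold if the replicates are technical. Confidence intervals are limma's, and SDs are over the 2 samples of a group. Depth was estimated from genes with a single GENCODE transcript of at least 1500 bases, and such counting errors cover counting only. Positions came from the NCBIM37 GENCODE annotation, which contains all 10 symbols once, and promoters from RefSeq. Alternatives were a pseudocount of 0.1, no filter, median-ratio scaling, quantile normalization, no trend, a replicate block, and each sample left out.

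Named genes are all members, Smad5, Smad6, Smad7, Smad9, Tgfbr2, Acvr2a, Bmpr1b and Acvr1c, and up to 3 called genes per direction from each other list whose groups did not overlap. Acvrl1 and Amhr2 are named as parts of the class sums. Members and lists were chosen with earlier results of these data known. A gene of the pathway lists is counted in its list but is not reported here by name.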

Additional observations from a re-analysis of the deposited data

How the results depend on the processing

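Acvr1b, Bmpr1a and Smad3 were called in the fits with a pseudocount of 0.1, median-ratio scaling, quantile normalization, no mean-variance trend and the replicate block. Without the filter on low values, Acvr1b and Bmpr1a were called, and over all genes 942 were called higher and 606 lower, against 1561 and 972 with it. With any 1 sample left out, between 0 and 3 members were called higher and 0 lower. Over all genes, between 311 and 1188 were then called higher and between 238 and 763 lower, and of the other pathway genes between 1 and 11 higher and between 8 and 13 lower. The fewest calls came without RDF replicate 2 or RDF replicate 1, when that group held 1 sample, assumed to vary like the DMSO samples. Without a DMSO replicate the DMSO group likewise held 1 sample, assumed to vary like the RDF samples. Why the calls differed between these fits was not tested. The log2 fold change of Acvr1 turned to -0.031 with quantile normalization and ranged from -0.068 to 0.13 with a sample left out. The corresponding range was -0.035 to 0.41 for Smad1, -0.0023 to 0.093 for Smad4, 0.0093 to 0.30 for Acvr2b and 0.069 to 0.20 for Bmpr2, and the causes were not tested. With median-ratio scaling the ratio of RDF to DMSO for Smad6 plus Smad7 was 0.570 in place of 0.583. Of 100 member values under the alternatives, 88 kept their direction and their side of the threshold, a total that includes the 7 members not called. The 7 values that lost a call all belonged to Acvr1b, Bmpr1a or Smad3, most of them to Smad3. The 5 that changed sign belonged to Acvr1, Smad1 and Smad4. With the replicate block 1651 genes were called higher and 1066 lower, and 3 members higher. Deviations of same-numbered samples from their group means gave a Pearson r of 0.134 over the genes tested, and nothing in the labels says that a number marks a shared culture. Depth limits Smad1, Acvr1 and Bmpr2 most.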
